A study of Mus musculus with 10 samples.

Results

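The HOX transcription factors with their MEIS and PBX cofactors were examined as 1 group of 44 genes in sorted mouse hematopoietic stem cells (HSCs). The members were found by gene symbol among the 26146 genes of the count table. All 44 were in the table. They comprised 10 HOX A genes, 10 HOX B genes, 9 HOX C genes, 9 HOX D genes, 3 MEIS genes and 3 PBX genes. In control HSCs the HOX RNA came mainly from the middle of the HOX A cluster, from Hoxa5 to Hoxa10, with a smaller part from Hoxb2, Hoxb3 and Hoxb5, and Meis1 stood above every HOX gene. No member passed the test between the genotypes. Summed, the 10 HOX A genes reached 79.9% of the control level in HSCs of Cited2 knockout mice. This sum was not tested, and its libraries overlapped between the genotypes after correction for GC content and gene length or without Hoxa10.

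RNA was measured by bulk RNA-seq of polyA RNA in HSCs sorted as Lin- Sca1+ Kit+ (LSK) CD48- CD150+ cells from mice of 2 genotypes aged 8 to 12 weeks, with 5 libraries each, 1 mouse per library. The control mice (CTL, wildtype in the sample labels) carried Cited2 fl/fl without Cre, and the knockout mice (CKO) carried Cited2 fl/fl with Vav-iCre, a transgene active throughout the hematopoietic system, which deletes Cited2 in HSCs and other blood cells alike. Cited2 encodes a transcriptional coregulator that binds CBP and p300. The comparison addressed which HOX, MEIS and PBX paralogs HSCs use and whether their RNA shifts without Cited2.

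Counts summed to between 3058690 and 4548795 per library. Levels are given as CPM, the usual count scale per library with totals normalized by TMM, and 3 counts in a library corresponded to 0.656 to 1.00 CPM. Cited2 itself lay between 101 and 222 CPM in the CTL libraries and between 3.80 and 8.30 CPM in all CKO libraries but 1. That library, CKO 3, held 120.07 CPM of Cited2, inside the CTL range. It was kept in its labelled group. Values without it are given for the summed HOX A level, the genes called over the whole table and some members. The 13 listed HSC markers, Hoxb5 among them, were all at 1 CPM or more, for example Slamf1, which encodes the sorted antigen CD150, at 106 CPM in CTL and 120 CPM in CKO HSCs.

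HOX genes encode homeodomain transcription factors and lie in clusters in which the order of the genes follows the order of their activation along the body axis. Genes at the same place in different clusters are paralogs and carry the same number. PBX and MEIS proteins are homeodomain proteins of the TALE class that bind DNA together with HOX proteins and sharpen their choice of sites. In blood, HOX A genes and Meis1 are known for high expression in stem and progenitor cells, and Hoxa9 with Meis1 for driving acute leukemia when kept active. Chromatin regulators of the MLL and Polycomb groups keep HOX genes active or silent, in part through promoters rich in CpG.

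The point at which RNA stopped along the HOX A cluster lay between Hoxa10 and Hoxa11, and the windows before the starts of the genes around it, with that of Meis1, are shown to place these genes. Each is the 250 bases before a RefSeq start on GRCm38.p6, written 5′ to 3′ on the strand of the gene, here always the minus strand, with each CpG in capitals. The Hoxa9 window, too, lies inside its gene, which GENCODE M21 places at bases 52223100 to 52231089, and not before its outer start.
Hoxa9, chr6:52227371-52227620: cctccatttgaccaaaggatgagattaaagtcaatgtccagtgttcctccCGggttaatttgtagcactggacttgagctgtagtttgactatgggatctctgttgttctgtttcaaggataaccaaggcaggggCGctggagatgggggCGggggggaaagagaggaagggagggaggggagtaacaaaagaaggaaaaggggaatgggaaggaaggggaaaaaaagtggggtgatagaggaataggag
Hoxa10, start inside the gene, chr6:52234940-52235189: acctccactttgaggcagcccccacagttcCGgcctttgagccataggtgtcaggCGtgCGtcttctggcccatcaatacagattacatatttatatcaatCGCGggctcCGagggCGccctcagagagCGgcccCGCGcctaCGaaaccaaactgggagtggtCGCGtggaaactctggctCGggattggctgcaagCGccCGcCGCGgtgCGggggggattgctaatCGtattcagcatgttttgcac
Hoxa10, outer start, chr6:52240855-52241104: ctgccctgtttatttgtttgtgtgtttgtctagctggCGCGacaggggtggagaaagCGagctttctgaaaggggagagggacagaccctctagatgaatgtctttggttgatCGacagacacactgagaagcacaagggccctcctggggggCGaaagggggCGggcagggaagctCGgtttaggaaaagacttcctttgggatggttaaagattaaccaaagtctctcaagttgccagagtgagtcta
Hoxa11, chr6:52245811-52246060: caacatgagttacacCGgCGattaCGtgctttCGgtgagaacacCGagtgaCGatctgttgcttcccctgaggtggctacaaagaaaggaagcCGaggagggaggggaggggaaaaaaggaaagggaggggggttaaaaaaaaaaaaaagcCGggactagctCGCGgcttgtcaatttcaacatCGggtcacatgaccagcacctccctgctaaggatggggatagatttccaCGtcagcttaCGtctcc
Meis1, chr11:19018970-19019219: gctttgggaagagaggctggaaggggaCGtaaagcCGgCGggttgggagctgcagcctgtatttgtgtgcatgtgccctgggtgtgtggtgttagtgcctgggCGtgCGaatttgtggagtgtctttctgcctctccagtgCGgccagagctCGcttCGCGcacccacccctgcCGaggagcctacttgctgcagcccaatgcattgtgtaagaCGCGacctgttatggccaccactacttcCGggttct

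The Hoxa9 window held 3 CpG, the Hoxa10 windows 20 and 7, the Hoxa11 window 13 and the Meis1 window 13, against a median of 6 over 32851 windows of the same length. The number for Hoxa11, which had almost no reads, lay between those of the Hoxa10 windows. RefSeq windows were at hand for 27 of the 44 members, in 29 windows, and these were searched on both strands for the MEIS core TGACAG and for TGATTNAT, a core bound by PBX with HOX. TGACAG was in 2 of the 29 windows, those of Hoxa2 and Hoxa3, and in 15.86% of all windows. TGATTNAT was in 2 of the 29 windows, those of Hoxa2 and Hoxd11, and in 2.825% of all windows. Only the Hoxa2 window held both, and it is shown with the matches in capitals.
Hoxa2, chr6:52164832-52165081: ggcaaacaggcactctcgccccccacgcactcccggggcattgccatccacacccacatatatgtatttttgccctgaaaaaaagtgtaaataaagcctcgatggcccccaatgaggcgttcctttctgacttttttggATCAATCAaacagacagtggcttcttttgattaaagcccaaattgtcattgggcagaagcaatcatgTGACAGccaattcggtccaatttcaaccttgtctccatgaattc

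In the CTL libraries 21 of the 44 genes averaged at least 1 CPM, the level taken here as expressed. They were 8 of the 10 HOX A genes, 5 of the 10 HOX B genes, 1 of 9 HOX C genes, 1 of 9 HOX D genes and all of the MEIS and PBX genes listed. The same rule gave 21 genes in the CKO libraries, though not the same ones. Hoxb6 averaged 1.30 CPM in CTL and 0.574 CPM in CKO libraries, and Hoxc5 0.621 and 1.73 CPM, the latter with 5.07 CPM in CKO 5. Along the HOX A cluster (chromosome 6, bases 52162417 to 52260880 of GRCm38) every listed gene from Hoxa2 to Hoxa10 was expressed. Hoxa10 averaged 70.01 CPM in CTL HSCs, and its 5′ neighbour Hoxa11, separated from it by 1.25 kb, averaged 0.0487 CPM with reads in 4 of all 10 libraries. Hoxa13, the last gene of the cluster, had reads in 2 of the 10 libraries. Exons of Hoxa11 share 35.0% of their bases with the antisense gene Hoxa11os, and whether counting used the strand is not given in the sources used here.

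**Figure D1:**
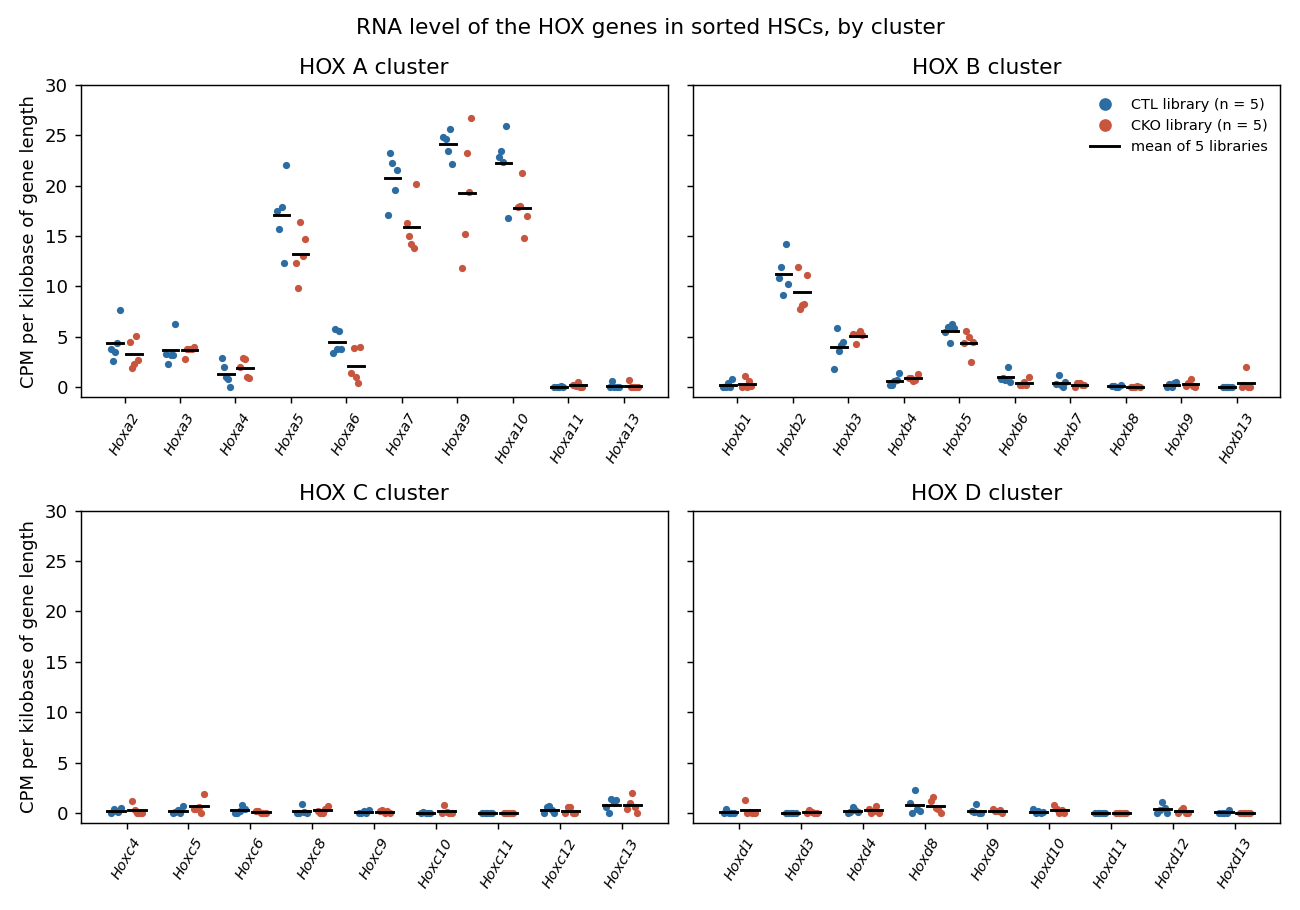
Level of each HOX gene in every library, in CPM per kilobase of gene length, with the genes of each cluster in 3′ to 5′ order along the horizontal axis, CTL libraries in blue, CKO libraries in red and the mean of 5 libraries as a bar. Hoxa5, Hoxa7, Hoxa9 and Hoxa10 stood highest, Hoxb2 led the HOX B cluster, and the HOX C and HOX D genes stayed near 0 in both genotypes.

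Levels of different genes were compared per kilobase of the gene length deposited with the counts. On that scale Meis1 was highest in CTL HSCs, at 115.06 ± 5.84 CPM per kb (SD, n = 5), which placed it at the 96.25th percentile of the 14165 tested genes. Hoxa9 followed at 24.2 ± 1.37 CPM per kb, Hoxa10 at 22.3 ± 3.36, Hoxa7 at 20.8 ± 2.44, Pbx4 at 20.2 ± 3.19 and Hoxa5 at 17.1 ± 3.52. Below them came Hoxb2 at 11.3 ± 1.91, Pbx3 at 7.90 ± 2.02 and Hoxb5 at 5.598 ± 0.763 CPM per kb. Only Meis1 had libraries that all lay above those of the next gene in the order, and each of the other neighbouring pairs overlapped between libraries.

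The order depended on the gene length used. Per kilobase of exonic length in the GENCODE M21 annotation, where Meis1 and Hoxa9 are given more exonic bases than in the deposited table, Meis1 still led at 37.6 ± 1.91 CPM per kb and lay apart from the next gene. Hoxa10 then came second at 21.4 ± 3.23 CPM per kb, and Hoxa9 sixth at 9.83 ± 0.560. The 6 highest genes were the same on both scales.

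For the paralogs numbered 7, 9 and 10 a HOX A gene supplied nearly all of the RNA. Per kilobase in CTL HSCs, Hoxa7 held 98.0 ± 1.84% of the RNA of paralogs numbered 7, Hoxa9 97.8 ± 1.44% of those numbered 9 and Hoxa10 99.3 ± 0.577% of those numbered 10. Hoxa5 held 74.1 ± 5.14% of the RNA of its paralogs, with Hoxb5 as the main other source, and Hoxa6 held 79.2 ± 7.33%. The 3′ paralogs were divided otherwise. Hoxb2 held 72.5 ± 9.43% against Hoxa2, and Hoxb3 held 51.7 ± 14.2% against Hoxa3, with single libraries from 35.3% to 71.9%. With GENCODE lengths Hoxb2 held 57.2 ± 11.1% and Hoxb3 68.0 ± 12.1%, so these shares, too, depended on the length used, while Hoxa7, Hoxa9 and Hoxa10 kept at least 94.98% of theirs. The share of Hoxb3 rests on a gene whose exons overlap the antisense gene Hoxb3os over 52.9% of their bases, and for Hoxb2 this overlap is 27.3%.

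The genes outside this set were at trace level. Of 23 genes under 1 CPM in CTL HSCs, 21 had reads in at least 1 library, and the highest single count among them was 22, for Hoxc5 in the library CKO 5 (5.07 CPM). Hoxc11 and Hoxd11 had no reads in any library, which allows up to 0.0764 CPM each over the 10 libraries together. Hoxb13 had reads in 2 CKO libraries, with 11 of its 12 counts in CKO 3, and none in CTL libraries. Hoxc13 averaged 2.01 ± 1.35 CPM in CTL and 1.92 ± 1.80 CPM in CKO HSCs, and Hoxd8 1.06 ± 1.32 and 1.04 ± 0.893 CPM. Both were without reads in CTL 2 and CKO 5. Hoxb4, a gene known for expanding HSCs when overexpressed, was low, at 1.57 ± 1.19 CPM in CTL and 2.25 ± 0.625 CPM in CKO HSCs, with reads in all 10 libraries. The floors of 3 counts cover counting error only.

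The HOX RNA of CTL HSCs summed to 275.99 ± 11.3 CPM over the 38 HOX genes. HOX A genes made up 79.6 ± 2.58% of it, HOX B genes 17.5 ± 2.79%, HOX C genes 1.59 ± 1.04% and HOX D genes 1.27 ± 1.21%. Hoxa5, Hoxa7, Hoxa9 and Hoxa10 alone held 71.6 ± 3.27%.

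Between the genotypes, 17 of the 44 genes had enough counts to be tested, namely 8 HOX A, 3 HOX B, 3 MEIS and 3 PBX genes. A gene had to reach an adjusted p under 0.05 and a fold change above 20% in the quasi-likelihood test of edgeR, with p adjusted after Benjamini and Hochberg over all 14165 tested genes. None of the 17 did, where 0.226% of all tested genes did. At an unadjusted p under 0.05, 2 of the 17 (11.8%), Hoxa7 and Hoxa10, were reached, both lower in CKO HSCs, against 12.9% of all tested genes in either direction and 7.08% in the lower direction, so the share was near that of the genes at large. DESeq2 gave 0 of 15 members with 2 at an unadjusted p under 0.05, where it called 2.43% of all genes. limma-voom gave 0 of 17 with 2 at an unadjusted p under 0.05, where it called 0.198%. For no member did the libraries of the genotypes lie apart, as they did for 3.33% of all tested genes.

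The fitted log2 fold changes leaned to one side. Of the 17 tested genes, 14 had a value below 0 (82.4%), against 48.95% of all tested genes, and their median was -0.32, against 0.01. With each library corrected for GC and length, 12 of the 17 remained below 0, the median was -0.21 and no member reached an unadjusted p under 0.05 in edgeR. The tested members had a median GC content of 53.3%, against 48.8% for all tested genes. The members are not independent of each other, and no test was made of the list.

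**Figure D2:**
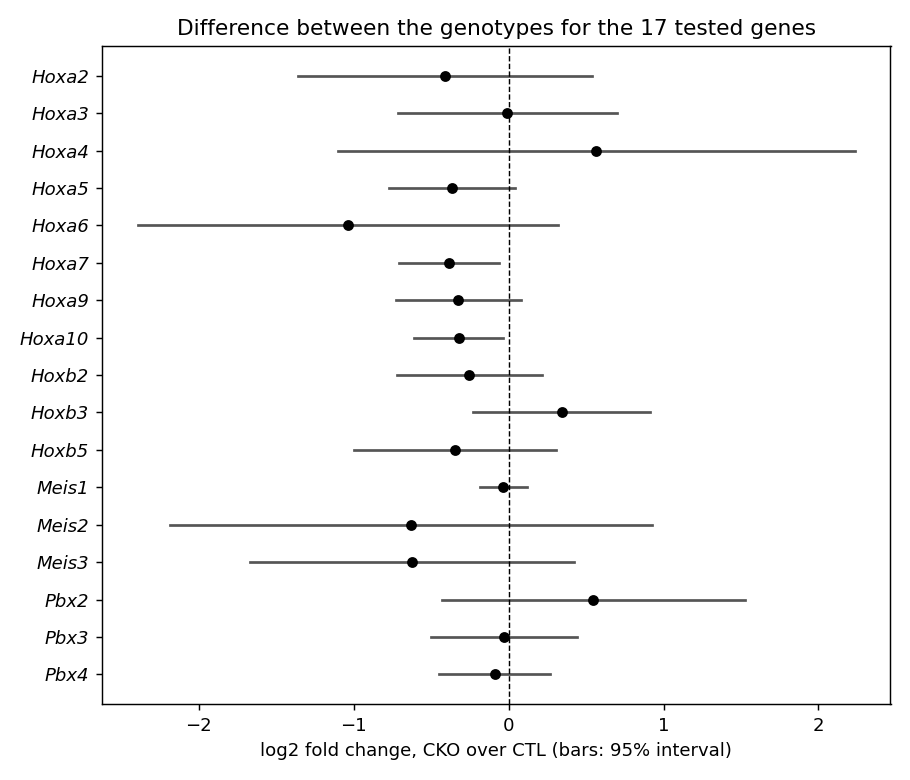
Log2 fold change (CKO over CTL) of the 17 tested HOX, MEIS and PBX genes from edgeR's quasi-likelihood fit, each as a point with its 95% interval, and a dashed line at no difference. The intervals of Hoxa7 and Hoxa10 end below 0 before adjustment, and that of Meis1 is the narrowest.

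Hoxa7, a HOX A gene of the middle of the cluster, had the smallest p of the members. Its CTL libraries held 33.4, 45.5, 43.5, 38.3 and 42.01 CPM, and its CKO libraries 31.9, 29.2, 27.7, 27.05 and 39.4 CPM. Of the CKO libraries 4 lay below the lowest CTL library, while CKO 5 lay inside the CTL range. The log2 fold change was -0.39 (standard error 0.15, 95% interval -0.71 to -0.06), and the adjusted p in edgeR was 0.313. Exons of Hoxa7 overlap the antisense gene Hoxaas3 over 20.4% of their bases, and for Hoxaas3 itself the log2 fold change was -0.43 ± 0.45 (standard error, adjusted p = 0.732 in edgeR).

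Hoxa10, whose overexpression is known to expand progenitors and to drive leukemia, was the HOX gene with the most counts. It was measured at 71.9, 73.8, 70.3, 81.4 and 52.7 CPM in the CTL libraries and at 56.3, 56.4, 66.7, 46.4 and 53.5 CPM in the CKO libraries. Except for CTL 5, every CTL library lay above every CKO library. Its log2 fold change was -0.32 (standard error 0.13, 95% interval -0.61 to -0.03), and the adjusted p in edgeR was 0.336.

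Hoxa9, required for normal HSC function and a known partner of Meis1 in leukemia, was spread differently in the 2 genotypes. The CTL libraries held 56.5, 56.1, 53.2, 58.3 and 50.3 CPM. The CKO libraries held 26.9, 34.6, 52.7, 44.1 and 60.6 CPM, so that 3 lay below the CTL range, 1 inside it and 1 above it. The coefficient of variation was 5.69% in CTL libraries, where counting error alone gives 7.01%, and 30.9% in CKO libraries, where counting error alone gives 7.53%. Separate mice differ by more than counting error, and the common biological coefficient of variation over all tested genes was 25.3%. The difference in spread was not tested. The log2 fold change was -0.32 (standard error 0.19, 95% interval -0.73 to 0.08, adjusted p = 0.5005 in edgeR).

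Hoxa5, at the 3′ end of the most expressed stretch of HOX A, was at 32.8, 29.6, 33.5, 23.2 and 41.4 CPM in CTL libraries and at 23.06, 18.6, 30.7, 24.4 and 27.7 CPM in CKO libraries. The groups overlapped, with 2 CKO libraries below the lowest CTL library. Its log2 fold change was -0.37 (standard error 0.19, adjusted p = 0.443 in edgeR). Hoxa6 was low, at 2.34, 4.04, 2.65, 3.90 and 2.63 CPM in CTL libraries and 0.951, 2.72, 0.709, 0.294 and 2.77 CPM in CKO libraries. Of the CKO libraries 3 lay below the CTL range, and the log2 fold change of -1.04 carried a standard error of 0.63 (adjusted p = 0.523 in edgeR).

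The 3′ HOX A genes gave wide intervals. Hoxa2 held 6.35, 4.29, 5.88, 7.31 and 12.9 CPM in CTL and 7.61, 3.22, 3.78, 8.53 and 4.61 CPM in CKO libraries, with overlapping groups and a log2 difference of -0.41 (standard error 0.44). Hoxa3 held 8.36, 5.81, 8.23, 8.04 and 15.97 CPM in CTL and 7.13, 9.65, 9.69, 9.70 and 10.1 CPM in CKO libraries, and its groups overlapped. Its log2 fold change was -0.01 (standard error 0.33) and became 0.28 without CTL 5, where Hoxa3 was highest. Hoxa4, between 0 and 4.45 CPM, differed by 0.57 on the log2 scale with a standard error of 0.78.

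**Figure D3:**
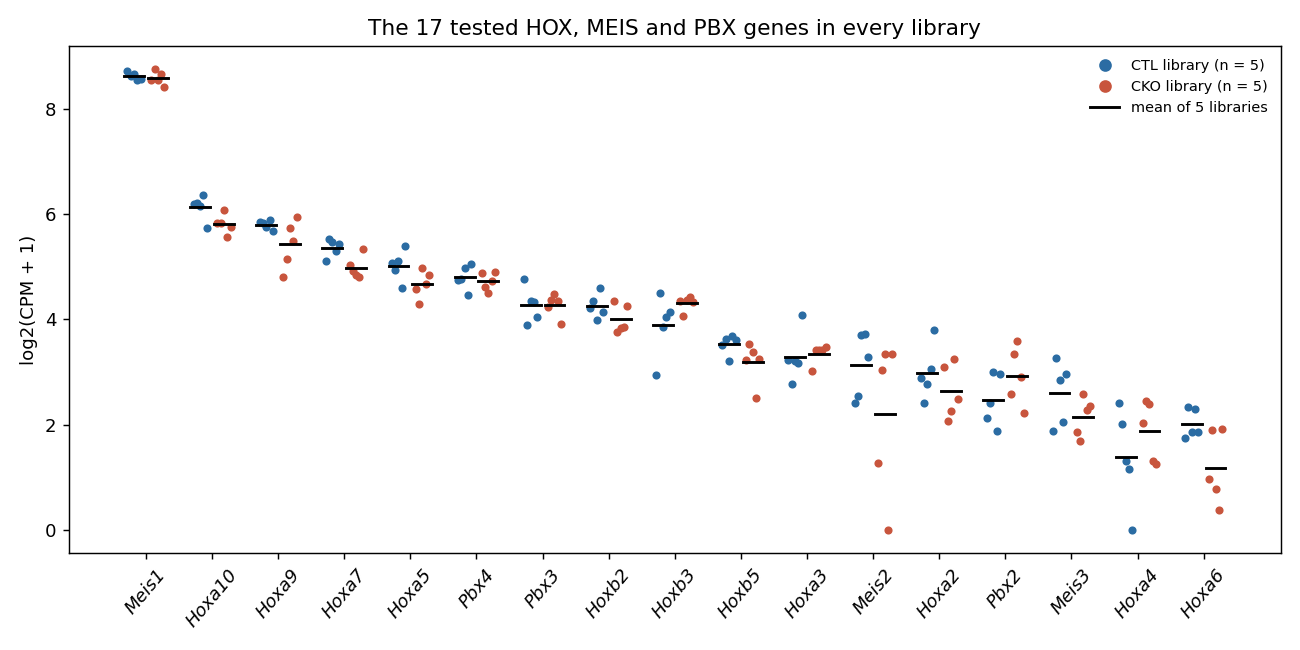
Every library's level of the 17 tested HOX, MEIS and PBX genes as log2(CPM + 1), ordered by mean level from left to right, with CTL libraries in blue, CKO libraries in red and bars at the mean of the log2 values of 5 libraries. The genotypes overlap for each gene, Meis1 lies above all others, and the points of Hoxa9 are spread more widely in CKO than in CTL libraries.

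None of the tested HOX B genes passed the test. Hoxb2 was at 17.7, 19.5, 14.99, 23.2 and 16.6 CPM in CTL libraries and at 19.5, 12.6, 13.2, 13.5 and 18.2 CPM in CKO libraries. The groups overlapped, and the log2 fold change was -0.25 (standard error 0.22). Hoxb3 held 6.69, 21.7, 13.5, 15.6 and 16.6 CPM in CTL libraries, where CTL 1 was lowest, and 19.5, 15.8, 19.6, 20.6 and 19.1 CPM in CKO libraries. Its log2 fold change of 0.34 (standard error 0.27) was one of only 3 above 0 among the tested members, with those of Hoxa4 and Pbx2. Hoxb5, a marker of long-term HSCs, was at 10.4, 11.4, 8.23, 11.9 and 11.2 CPM in CTL and at 8.32, 10.6, 9.455, 4.70 and 8.53 CPM in CKO libraries. CKO 4 was lowest, the groups overlapped, and the log2 fold change was -0.35 (standard error 0.30). The adjusted p of these 3 genes lay between 0.633 and 0.676 in edgeR.

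Meis1, needed for HSC maintenance, was the member measured most precisely. Its CTL libraries held 422, 397, 407, 373 and 379.8 CPM and its CKO libraries 374, 434, 377, 405 and 343 CPM. The groups overlapped on both sides. The log2 fold change was -0.03 (standard error 0.07, adjusted p = 0.879 in edgeR), and its 95% interval allowed a CKO level between 0.880 and 1.08 times that of the CTL HSCs on the scale of the fit. Meis1 made up 96.6 ± 1.06% of the summed CPM of the MEIS genes in CTL HSCs.

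The other MEIS genes were low and variable. Meis2 was at 4.35, 4.799, 12.05, 12.2 and 8.75 CPM in CTL libraries and at 1.43, 7.17, 9.22, 0 and 9.22 CPM in CKO libraries, where CKO 4 had no reads and CKO 1 was also below the CTL range. Its log2 fold change was -0.63 with a standard error of 0.73. Meis3, between 2.23 and 8.59 CPM, differed by -0.62 on the log2 scale with a standard error of 0.49, and its groups overlapped.

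Among the PBX genes, whose products are the DNA-binding partners of HOX proteins, Pbx4 led per kilobase. It held 26.08, 26.3, 30.6, 21.2 and 32.2 CPM in CTL libraries and 28.5, 23.5, 21.7, 25.6 and 28.8 CPM in CKO libraries, all of the latter inside the CTL range. Pbx3, upregulated with HOXA9 in some leukemias, held 26.4, 13.9, 19.4, 19.3 and 15.5 CPM in CTL libraries and 17.8, 19.8, 21.3, 19.4 and 14.1 CPM in CKO libraries, which also lay inside the CTL range. The log2 fold changes were -0.09 (standard error 0.17) for Pbx4 and -0.03 (standard error 0.22) for Pbx3. Pbx2, which shares 6.24% of its exonic bases with Gpsm3, was at 3.34, 4.29, 7.06, 2.68 and 6.78 CPM in CTL and at 4.99, 9.15, 11.1, 6.47 and 3.69 CPM in CKO libraries. CKO 2 and CKO 3 lay above the CTL range, and its log2 fold change was 0.55 (standard error 0.46, adjusted p = 0.661 in edgeR).

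Summed over the cluster, HOX A RNA was lower in each CKO library than in each CTL library. The sums of the 10 HOX A genes were 216, 223, 219, 222 and 218 CPM in the CTL libraries and 158, 159, 197, 162 and 200.02 CPM in the CKO libraries. The CKO libraries fell into lower values in CKO 1, CKO 2 and CKO 4 and higher values in CKO 3 and CKO 5. The CKO mean was 79.9% of the CTL mean, and 77.4% without CKO 3. These sums are a description, without a test, since earlier results of these data were known when this group of genes was taken up. Single genes lay apart between the genotypes, in either direction, for 3.33% of all tested genes. No such share was worked out for sums of genes. The CTL sums were closer together (coefficient of variation 1.27%) than counting error alone gives (3.46%). The coefficient of variation of the CKO sums was 12.2%. The groups overlapped after correction for GC content and gene length, at 210.1 to 219 CPM in CTL and 160.3 to 213 CPM in CKO libraries, with a CKO mean of 83.8% of the CTL mean. They also overlapped when Hoxa10 was left out of the sum, at 140.4 to 165 and 102 to 147 CPM.

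HOX B RNA summed to 48.6 ± 9.24 CPM in CTL and 47.9 ± 3.49 CPM in CKO HSCs, with overlapping libraries. HOX A genes accordingly made up 75.2 ± 2.51% of HOX RNA in CKO HSCs, between 71.7% and 77.6%, where the CTL libraries lay between 77.9% and 84.1%. Per kilobase the shares overlapped, at 70.6% to 77.7% in CKO and 75.8% to 81.6% in CTL HSCs. HOX B genes made up 20.6 ± 1.32%, HOX C genes 2.41 ± 0.699% and HOX D genes 1.69 ± 1.199% in CKO HSCs.

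**Figure D4:**
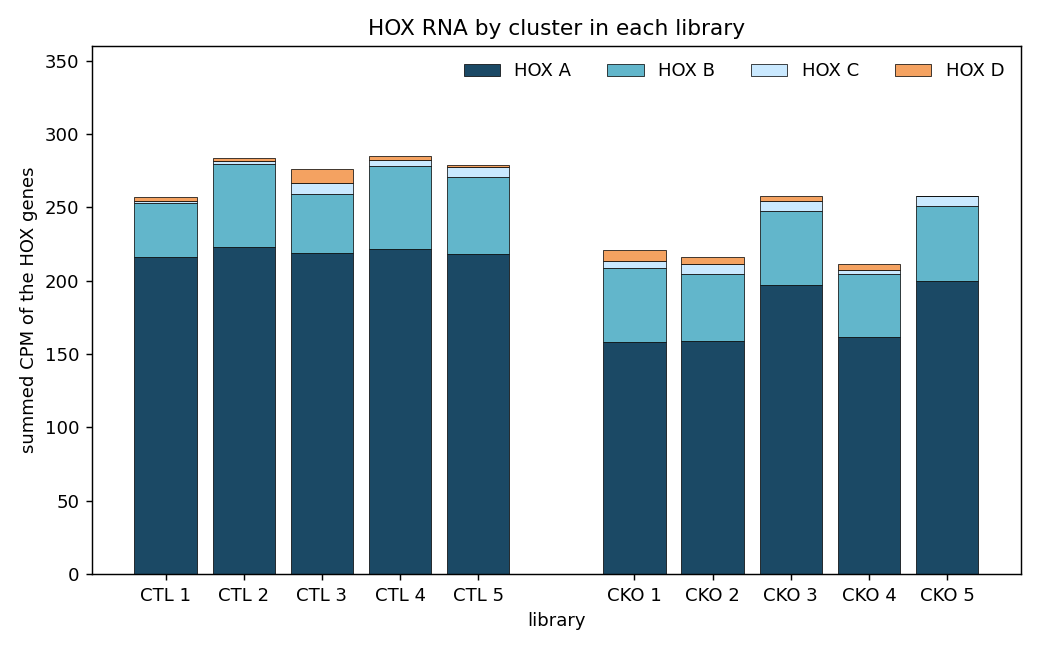
Summed CPM of the HOX genes in each library, stacked by cluster from HOX A at the bottom to HOX D at the top, with 5 CTL libraries on the left and 5 CKO libraries on the right. The HOX A part lies between 216 and 223 CPM in CTL and between 158 and 200.02 CPM in CKO libraries, while the HOX B part lies between 37.1 and 56.8 CPM in CTL and between 42.9 and 50.9 CPM in CKO libraries.

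In bulk samples fewer cells of a type and less RNA per cell cannot be told apart. The 13 HSC markers, none of them at 0 in all libraries, summed to between 2613 and 2886 CPM in CTL and between 2308 and 2620.3 CPM in CKO libraries, and 0 of them were called in edgeR. The 6 markers of multipotent progenitors reported here summed to between 521 and 614 CPM in CTL and between 531 and 620.3 CPM in CKO libraries, and 1 was called in edgeR. This was Cd48, which encodes the antigen used to exclude these cells in the sort, at 21.6 CPM in CTL and 49.02 CPM in CKO HSCs. The 7 T and NK cell markers, of which 3 averaged at least 1 CPM, summed to 53.6 to 102 CPM in CTL and 91.3 to 128 CPM in CKO libraries, and nearly all of this was Nkg7, a cytotoxic granule gene, at a mean of 69.7 CPM in CTL and 96.4 CPM in CKO HSCs. The T cell genes Cd3e, Cd3d and Cd3g averaged under 1 CPM in both genotypes, and Cd4 was at 4.48 CPM in CTL and 3.46 CPM in CKO HSCs. The lists for megakaryocytes and platelets, erythroid cells, granulocytes and monocytes, B cells and stromal and endothelial cells overlapped between the genotypes and held no gene called in edgeR. The part of these markers in the HOX A difference was not tested.

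Among the genes around the HOX program edgeR and limma-voom called none in any list, while DESeq2 called 4, namely Men1, Gfi1, Ikzf2 and Nkx2-3, where it called 2.43% of all genes. Among 18 genes of the MLL, menin and DOT1L group, which keep HOX A genes active, 18 were tested, 7 had a log2 fold change above 0 and 11 below, and the median was -0.03. Men1, which encodes menin, the adaptor of MLL at HOX promoters, was at 108 ± 3.55 CPM in CTL and 83.2 ± 8.12 CPM in CKO HSCs, with a difference of -0.38 on the log2 scale (standard error 0.09) and an adjusted p of 0.0921 in edgeR and 0.00803 in DESeq2. Kmt2a, which encodes MLL itself, had a log2 fold change of -0.18 and Mllt10, a DOT1L partner, one of 0.14. Of 25 tested Polycomb genes, whose products silence HOX genes, 14 were above 0 and 11 below, with 1 and 4 at an unadjusted p under 0.05 in edgeR. The 4 lower genes were 16.0% of the list, beside 7.08% of all tested genes. Cbx6 and Cbx7, subunits that read histone methylation, had log2 fold changes of -0.42 and -0.35, and Ezh2, the methyltransferase, one of 0.22 (adjusted p between 0.194 and 0.362 in edgeR).

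Of 11 other tested regulators of HOX clusters, 6 were above 0 and 5 below. Ctcf, which encodes a protein that bounds chromatin domains, differed by 0.30 on the log2 scale (adjusted p = 0.231 in edgeR), and the retinoic acid receptor genes Rarb and Rarg had -0.78 and -0.66 (adjusted p = 0.405 and 0.420). The 3 tested TALE genes outside the members, Tgif1, Pknox1 and Tgif2, lay between -0.26 and -0.10, and Tgif1 had the smallest adjusted p of them, 0.441. Of 7 tested partners of PBX and MEIS, 4 were above 0 and 3 below. Pbxip1, whose product binds PBX proteins and inhibits them, was at 80.6 ± 5.32 CPM in CTL and 57.96 ± 18.2 CPM in CKO HSCs (log2 fold change -0.48, adjusted p = 0.318 in edgeR).

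Genes described as targets of HOXA9 and MEIS1 were divided evenly in direction, with 11 of 22 above 0 and 11 below and a median of -0.01. At an unadjusted p under 0.05 in edgeR 3 were higher and 3 lower, 27.3% of the list beside 12.9% of all tested genes. For 1 of the 22 the libraries of the genotypes lay apart, as they did for 3.33% of all tested genes. Gfi1, a repressor known to restrain HSC proliferation, was at 14.6 ± 7.01 CPM in CTL and 34.8 ± 11.9 CPM in CKO HSCs (log2 fold change 1.24, adjusted p = 0.123 in edgeR and 0.0173 in DESeq2). Ikzf2, an Ikaros family factor, differed by 0.55 on the log2 scale (adjusted p = 0.117 in edgeR and 0.0125 in DESeq2), and Flt3, a cytokine receptor gene of multipotent progenitors, one of -0.36 (adjusted p = 0.194 in edgeR). Of 13 tested homeobox genes from outside the clusters, 8 were above 0 and 5 below. An unadjusted p under 0.05 in edgeR was reached by 4 of them (30.8%), beside 12.9% of all tested genes. Libraries lay apart for 2 of these 13 and for 1 of the 18 genes of the MLL group, and for no gene of the remaining lists. Nkx2-3 had the smallest adjusted p, 0.102 in edgeR and 0.0145 in DESeq2, with a log2 fold change of -0.51. The noncoding genes of the HOX clusters were largely out of reach, since 12 of 22 listed were in the table and 1, Hoxaas3, was tested. All these lists were written with earlier results of these data known.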

How the data were processed

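Bulk RNA was sequenced from HSCs of 5 CTL and 5 CKO mice. Alignment by the authors was to GRCm38 (HISAT2) and counting by Rsubread. They deposited raw counts and the length of each gene in bases, which served only to scale levels between genes. The annotation, the treatment of reads matching several genes, and duplicate removal are not given in the sources used here. Groups came from the labels, which name the control genotype wildtype, and the methods. The labels number the libraries but do not pair them.

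Counts were analysed in R 4.3.3. Genes passing filterByExpr were normalized by TMM and tested with edgeR 4.0.16 (quasi-likelihood F test, robust). A call needed a Benjamini-Hochberg adjusted p under 0.05 and a change of more than 20%. Alternatives were DESeq2 1.42.0, its size factors in edgeR, limma-voom (limma 3.58.1), no filter, the replicate number as a block, a correction for GC content and gene length (an offset per library by loess, span 50%, which would also absorb genotype effects that follow them), each library left out, an adjusted p of 0.01 and no fold change threshold. Alternatives for the summed HOX A level, the GENCODE gene lengths and the calls of list genes under other settings were chosen after seeing the data. Values in every library were given for members with a mean of at least 5 CPM and the 5 tested members with the smallest p, and each list was described by its counts and its genes with the smallest p. Other members were described by range, mean or counts. The order by GENCODE length, Hoxb4, Hoxb6, Hoxb13, Hoxc5, Slamf1, Cd48, Nkg7, Cd4 and the CD3 genes were picked after their values were seen. A listed marker of multipotent progenitors is not reported here. The scripts were tested on simulated data. The members and lists were chosen with earlier results of these data known. Positions and overlaps came from GENCODE M21, and promoter windows from RefSeq. Totals of 3058690 to 4548795 counts per library set the precision, which is lowest for weakly expressed genes. The p-values weigh the difference between the genotypes against the spread between mice of the same labelled genotype.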

Additional observations from a re-analysis of the deposited data

Results flagged for a closer look

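In 44 sets of 5 libraries (a gene or share within a genotype), 5 had a library whose gap to its nearest neighbour took up more than 0.71 of the range of its set, and chance alone flags about 1 in 20. Hoxa3 was at 15.97 CPM in CTL 5, where the next CTL library had 8.36 CPM, and at 7.13 CPM in CKO 1, where the next CKO library had 9.65 CPM. Without CTL 5 the log2 fold change of Hoxa3 went from -0.01 to 0.28, and without CKO 1 to 0.07. Cited2 was at 120.07 CPM in the library labelled CKO 3, where the next CKO library had 8.30 CPM. The share of HOX A genes in HOX RNA was 84.1% in CTL 1, where the next CTL library had 79.2%. The share of HOX D genes was 3.41% in CTL 3, where the next CTL library had 0.911%.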

How the results depend on the processing

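No member was called by any tool or setting run, and 278 of 289 recomputed fold changes of the 17 tested members kept their direction. The 11 that changed belonged to Hoxa3, Pbx3 and Pbx4, all near 0. The log2 fold change of Hoxa3 (-0.01) became 0.023 with limma-voom, 0.063 with the replicate block, 0.12 with an offset for GC and length and 0.19 with offset and block, and lay between -0.14 and 0.28 with a library left out. That of Pbx3 (-0.03) became 0.020 with limma-voom and lay between -0.13 and 0.11 with a library left out (above 0 without CTL 1 or CKO 5). That of Pbx4 (-0.09) became 0.11 with the offset, with or without the block. The smallest adjusted p of any member under any setting was 0.196, for Hoxa10 without CTL 5 in edgeR. Without CKO 3, 14 of the 17 tested members lay below 0, with a median of -0.30 and a smallest adjusted p of 0.276 in edgeR. Hoxa5, Hoxa7, Hoxa9 and Hoxa10 then had log2 fold changes of -0.45, -0.35, -0.40 and -0.40, and Pbx2 one of 0.32.

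Over the whole table edgeR called 32 genes, DESeq2 338, the offset 8, the offset with the replicate block 11, the block alone 24, and an adjusted p of 0.01 gave 8. With a library left out the count lay between 8 (without CKO 2) and 42 (without CKO 3), and it was 16, 11, 16 and 10 without CTL 1, 2, 3 or 4 and 14 without CKO 1 or CKO 5. The cause was not tested. Correlations of same-numbered libraries lay between -0.095 and 0.208, and 1 of 5 matched best with its own number, so the numbers were not taken as pairs. Of the genes on the pathway lists, edgeR called none under any setting of libraries, filter, block or offset run, and DESeq2 called 4. The CKO mean of the summed HOX A level lay between 77.1% and 81.8% of the CTL mean with a library left out, and was 79.4% with plain library totals and 80.3% with DESeq2's size factors. The number of expressed members was 27 at a threshold of 0.5 CPM and 14 at 5 CPM, against 21 at 1 CPM. At this depth 27 of the 44 members could not be tested, and intervals of the lower ones allow changes of over a log2 unit.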
